A study of Homo sapiens with 8 samples.

Results

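The genes examined here are those that make, load, package and take back catecholamines, the transmitters of the sympathetic lineage from which neuroblastoma arises. They were taken by name: the synthesis enzymes TH, DDC and DBH, the vesicular transporters SLC18A1 and SLC18A2, the plasma membrane transporter SLC6A2, and the granins CHGA, CHGB, SCG2 and SCG3. A poly(A) peak was assigned to a gene when it overlapped the gene's GENCODE span or the 4 kb after its 3′ end. The 10 genes of 19408 protein-coding genes held 94 of the 153624 peaks of the list. After removal of 2 peaks that ended before a long genomic A stretch with no polyadenylation signal (PAS) motif, 92 peaks remained.

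Poly(A) 3′-sequencing was done on 8 libraries in 4 groups of 2. Kelly cells are an established human line from a MYCN-amplified neuroblastoma. Kelly E9R cells are a line derived from Kelly by selection in rising doses of the covalent inhibitor E9. They carry a point mutation at the CDK12 cysteine to which THZ531 binds. Each line received DMSO or THZ531 for 6 h. THZ531 covalently inhibits CDK12 and CDK13, which are among the kinases of elongating RNA polymerase II. The labels give 400 nM THZ531; the study's methods state another concentration for these lines, so the dose is not certain. Peaks were called once, on the merged reads of all 8 libraries, so every value below belongs to the pool of both lines and both treatments: no peak has a value per library, a replicate error or a strand, and neither THZ531 against DMSO nor Kelly against Kelly E9R could be compared.

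Catecholamine synthesis starts with tyrosine hydroxylase, which turns tyrosine into L-DOPA. Aromatic amino acid decarboxylase then makes dopamine in the cytosol, the vesicular monoamine transporters carry dopamine into dense-core granules, and dopamine β-hydroxylase converts it to noradrenaline there. The granins are acidic proteins that aggregate with catecholamines, calcium and peptide hormones in those granules and are secreted with them. The 3′ end of an mRNA is made by cleavage some bases after a PAS, most often AATAAA, followed by addition of the poly(A) tail. Cleavage at a signal within an intron gives a shortened transcript, and oligo(dT) can also prime on runs of A within a transcript, which is why the sequence around each peak was examined.

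In all 10 genes the last 50 bp of the canonical transcript held AATAAA, against 67.5% of the protein-coding genes that had a transcript end peak. The signals lay close to the annotated ends: from the first base of AATAAA to the last base of the transcript there were 18 (CHGB) to 27 bases (SLC6A2), with a median of 22.5 bases, and the median over all such genes was 23 (quartiles 21 and 27). The end sequences are shown for 9 of the genes because the transcript end peaks described below sit on them. Each was read from GRCh38, 5′ to 3′ on the strand of the gene, and starts at the PAS, which is in capitals.
TH, chr11:2163922-2163951, minus strand: AATAAAagaaactgtggtctctacacctgc
DDC, chr7:50458432-50458461, minus strand: AATAAAcaattcaagtgaaatactaattgt
DBH, chr9:133659305-133659334, plus strand: AATAAAgctcacacttgggctggcacccac
SLC18A2, chr10:117279411-117279440, plus strand: AATAAAtcttctgaaccatgttttgtgcct
SLC6A2, chr16:55706166-55706195, plus strand: AATAAAtaatgtttcctgggctgtgtatct
CHGA, chr14:92935263-92935292, plus strand: AATAAAtctgttctgggctctttcctctga
CHGB, chr20:5925336-5925365, plus strand: AATAAAagattcacctgagaccaaaagctt
SCG2, chr2:223596932-223596961, minus strand: AATAAAtgttatttctggacaactttggac
SCG3, chr15:51721006-51721035, plus strand: AATAAAccttgctactgttcactctttggg

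Each of the 10 genes had a transcript end peak, that is, a retained peak within 200 bp before to 600 bp after the end of an annotated transcript, while 64.4% of all protein-coding genes had one and 76.3% had a retained peak of any kind. Of the 92 peaks, 16 were transcript end peaks (17.4%), 19 were exonic (20.7%), 54 were intronic (58.7%) and 3 lay downstream (3.26%). Over all protein-coding genes these shares were 14.4%, 14.9%, 66.5% and 4.23%. The strength of a peak is given as its pileup (the reads over the summit after extension to 100 bp), its fold enrichment over the local background and its −log10 q. Pileups are whole numbers here and never exceed 200 in the list, the most that 1 read per start position on each strand allows with this extension, and the study does not state how duplicate reads were handled. A pileup may therefore count distinct start positions, and it is not read here as the abundance of a transcript. The median pileup of the strongest transcript end peak was 39 in the 10 genes (quartiles 29.8 and 41) and 22 over the 12507 protein-coding genes with such a peak (quartiles 14 and 31). All 10 genes were above that median. The local background at these peaks was higher too, with a median of 1.82 against 0.97 reads per 100 bp, and the median folds were 12.4 and 10.9. The study names no control library for these peaks, so a gene's own reads may count in its local background.

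**Figure D1:**
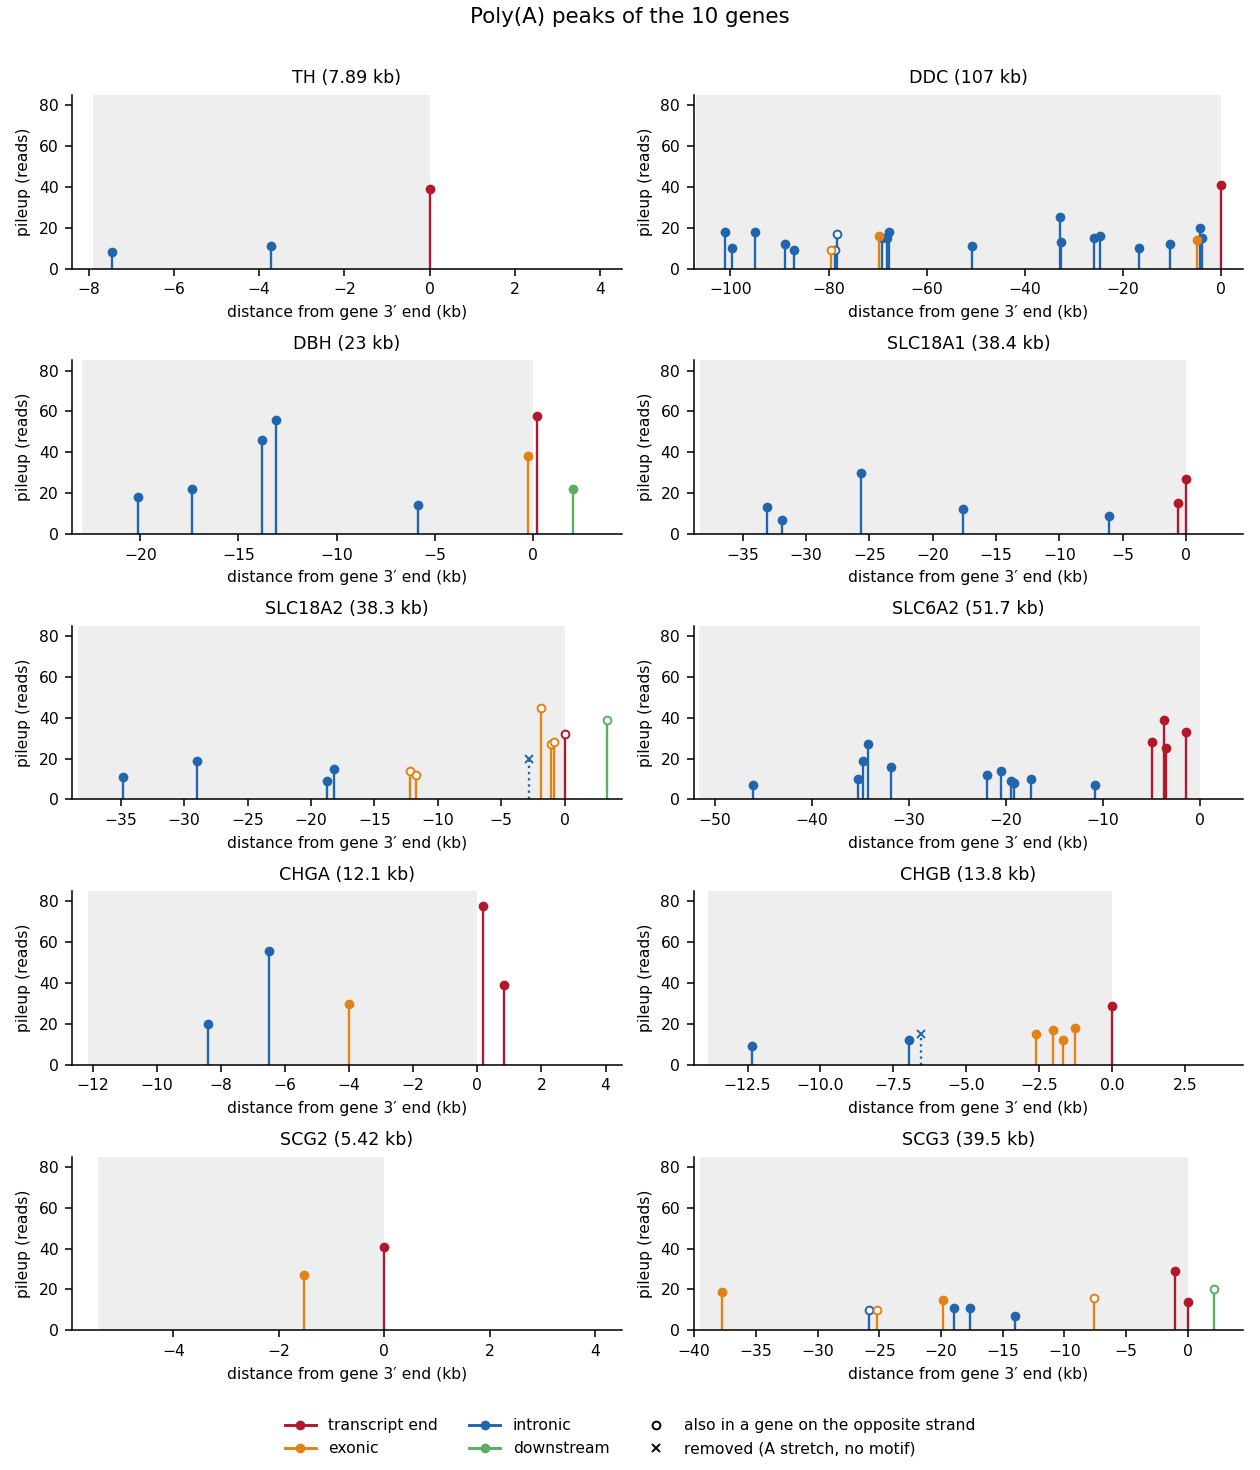
Poly(A) peaks of the 10 genes. Each panel is 1 gene, with the distance of the peak's 3′ end from the gene's annotated 3′ end in kb on the x axis and the pileup in reads on the y axis; grey marks the gene span, colours the class of the peak, open circles peaks that also lie in a gene on the opposite strand, and crosses the 2 removed peaks. The highest peak of each gene lies at its 3′ end except in SLC18A1, where an intronic peak is higher, in SLC6A2 and SCG3, where it lies 3705 and 1028 bp before the outermost end, and in SLC18A2, where the highest peaks lie within the neighbouring gene PDZD8.

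TH, the rate-limiting enzyme of the pathway, had the simplest pattern of the enzymes. Its end peak at chr11:2163922-2164058 in exon 13, 7 bp past the annotated end, had a pileup of 39, a fold enrichment of 20.7 and a −log10 q of 44.8. The fold was at the 95.5th percentile of protein-coding genes with a transcript end peak. The local background of 0.93 reads per 100 bp was close to the median of 0.97 of those genes. The gene is short, at 7.89 kb on the minus strand, and held only 2 further peaks, in introns 1 and 5, with pileups of 8 and 11. Neither had a PAS motif or A-rich sequence, defined as a run of at least 6 A or a stretch of 10 bases with at least 7 A in the 50 bp that follow a peak.

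DDC, which encodes aromatic amino acid decarboxylase, is the longest of the 10 genes, at 107 kb on the minus strand of chromosome 7, and had the most peaks, 23 in all and 9 at a −log10 q of at least 10. Its end peak at chr7:50458431-50458908 had a pileup of 41, a fold of 14.1 and a −log10 q of 35.3. A further 19 peaks were intronic and 3 were exonic. Protein-coding genes of like length with an intron and a transcript end peak had a median of 11 intronic peaks (quartiles 7 and 15). DDC was thus above the upper quartile of its length class. The intronic peaks were low, with pileups of 9 to 25, all under that of the end peak, and 5 of them lay in intron 1. The strongest, at chr7:50491316-50491461 in intron 9, had a −log10 q of 21.6, no PAS motif and A-rich sequence after it.

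Genomic A runs followed most of the DDC intronic peaks: 14 of 19 had A-rich sequence, 9 of them with no motif, and 2 had a motif without A-rich sequence. The A-rich count was close to the 75.0% of intronic peaks over all protein-coding genes. The 30 bases after 3 of these peaks, with the A run at the start in capitals, are shown as examples of template on which oligo(dT) could also prime; which of the reads arose that way was not tested. They were read from GRCh38 on the strand of the gene.
DDC intron 1, chr7:50559407-50559436, minus strand: AAAAAAAAgaaatgttctgatgttttgtgt
DDC intron 12, chr7:50468920-50468949, minus strand: AAAAAAAAAAAAAAAAAAtgaggaaactga
DDC intron 14, chr7:50462754-50462783, minus strand: AAAAAAAAAAAAAAAcaagaagaagagaaa

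DBH, the granule enzyme that makes noradrenaline, differed from the other enzymes in that intronic peaks were nearly as high as the end peak. The end peak at chr9:133659204-133659542 had a pileup of 58, a fold of 14.4 and a −log10 q of 47.7. It was wide and ended 213 bp past the annotated end, so that no motif fell in the 100 bp before its edge, while its summit lay 35 bp before the annotated end and the AATAAA shown above lies under the peak. An exonic peak in the same last exon, 285 bp before the end, had a pileup of 38 and AGTAAA 41 bases before its edge. In intron 5, chr9:133646061-133646240 had a pileup of 56 and a −log10 q of 41.5, and chr9:133645328-133645545 had a pileup of 46 and a −log10 q of 29.7. Among the 89557 pairs of an intronic peak and a protein-coding gene, whose median pileup was 8, these pileups were at the 99.9th percentile. The local backgrounds were high as well, at 3.65 and 3.8 reads per 100 bp against a median of 0.44. The folds were 12.3 and 9.79, against a median of 6.02. Both intron 5 peaks had a PAS motif and neither was followed by A-rich sequence.

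Such intronic peaks, with a motif and without A-rich sequence, occurred in 6 of the 10 genes, against 48.0% of protein-coding genes with a transcript end peak. The sequences of the 3 with the highest pileup, from DBH and CHGA, are shown from their motif (capitals) on. Under the narrower choice of AATAAA and ATTAAA, only the stronger DBH peak keeps a motif on the gene's strand. Each of the 3 also has a motif in the mirrored window on the opposite strand. It is TATAAA for the stronger DBH peak, and AATAAA for the other DBH peak and the CHGA peak. A list without strand cannot separate the strands. They were read from GRCh38 on the strand of the gene.
DBH intron 5, stronger peak, chr9:133646219-133646248, plus strand: ATTAAAaccccttgtcaatttcacactcct
DBH intron 5, other peak, chr9:133645514-133645543, plus strand: TATAAAtatcaaaatcccacaattatttca
CHGA intron 4, chr14:92928754-92928783, plus strand: AATATAtgtatatatgactattttccatta

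DBH also had the only downstream peak of the set that lay in no gene on the opposite strand. It ended 2029 bp past the gene at chr9:133661256-133661358, with a pileup of 22 and a −log10 q of 9.35, carried AGTAAA and was followed by A-rich sequence. It also fell within the 4 kb after the 3′ end of SARDH, the convergent neighbour, and with no strand in the list the peak cannot be given to either gene. Downstream peaks were found for 3 of the 10 genes and for 26.7% of protein-coding genes with a transcript end peak.

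SLC18A1 is the vesicular monoamine transporter typical of chromaffin cells (chromosome 8, minus strand, 38.4 kb). Its end peak had the lowest pileup of the 10 genes, 27, with a fold of 12.8 and a −log10 q of 24.2. The summit lay 339 bp before the gene's 3′ end. An intronic peak stood above this end peak: in intron 8 the pileup was 30 and the −log10 q 28.7, a pileup ratio of 1.11. SLC18A1 was the only one of the 9 genes with both kinds of peak in which the intronic peak was at least as high, against 24.6% of the protein-coding genes with both. That peak had AATAAA 59 bases before its edge but was also followed by A-rich sequence, as were the other 4 intronic peaks of the gene. A further transcript end peak, 623 bp before the gene's 3′ end, had a pileup of 15 and ATTAAA 24 bases before its edge.

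SLC18A2, the vesicular transporter used by monoamine neurons and sympathetic cells (plus strand, 38.3 kb), was the gene whose peaks were least certain. Its end peak at chr10:117279327-117279496 had a pileup of 32, but the fold was 6.01 and the −log10 q 14.1, the lowest of the 10 genes. The local background was 4.49 reads per 100 bp, at the 99.3rd percentile of protein-coding genes with a transcript end peak. The peak had AATAAA 23 bases before its edge, a different one from that shown above, and A-rich sequence on both strands. The last exon overlaps PDZD8, a convergent gene on the minus strand, and 7 of the 11 retained peaks of SLC18A2 lay in a gene on the opposite strand, the end peak among them. The highest of them, at chr10:117277334-117277581, with a pileup of 45 and a −log10 q of 30.2, lay at the annotated end of PDZD8, and the downstream peak 3323 bp past SLC18A2 lay in an exon of PDZD8. Without strand, reads of these genes cannot be told apart. The 4 peaks in no other gene were all intronic, with pileups of 9 to 19, and the strongest, at chr10:117250367-117250477 in intron 3, had a −log10 q of 17.2 and A-rich sequence without a motif.

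SLC6A2, the noradrenaline transporter that takes the transmitter back up at the plasma membrane (chromosome 16, plus strand, 51.7 kb), was the gene with the most end peaks. There were 4, with pileups of 25 to 39, spread over the last exon of a gene with 6 distinct annotated transcript ends. The strongest, at chr16:55703662-55703940, had a pileup of 39 and a −log10 q of 29.9, and its summit lay 22 bp before an annotated end. Its edge lay 149 bp past the nearest annotated end. No motif fell in the 100 bp before that edge, and A-rich sequence followed it. The peak at the canonical end, chr16:55705967-55706197, had a pileup of 33, a −log10 q of 24.1 and the AATAAA shown above. More than 1 transcript end peak was found in 4 of the 10 genes and in 38.0% of protein-coding genes with such a peak.

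SLC6A2 had 15 peaks in all, 10 at a −log10 q of at least 5 and 6 at a −log10 q of at least 10. Of the 15, 11 were intronic, a number above the upper quartile of 7 for genes of like length, and their pileups were 7 to 27. Neither count used a cut on −log10 q. A-rich sequence followed 5 of the 11, and 5 had a motif without it, where the shares over all protein-coding genes were 75.0% and 17.4%; the difference was not tested. The intronic peaks lay mainly in introns 4 and 5. The strongest, at chr16:55673118-55673436 in intron 4, had a pileup of 27 and a −log10 q of 20.9. It lacked both a motif and A-rich sequence on the gene's strand, but had A-rich sequence on the opposite strand.

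**Figure D2:**
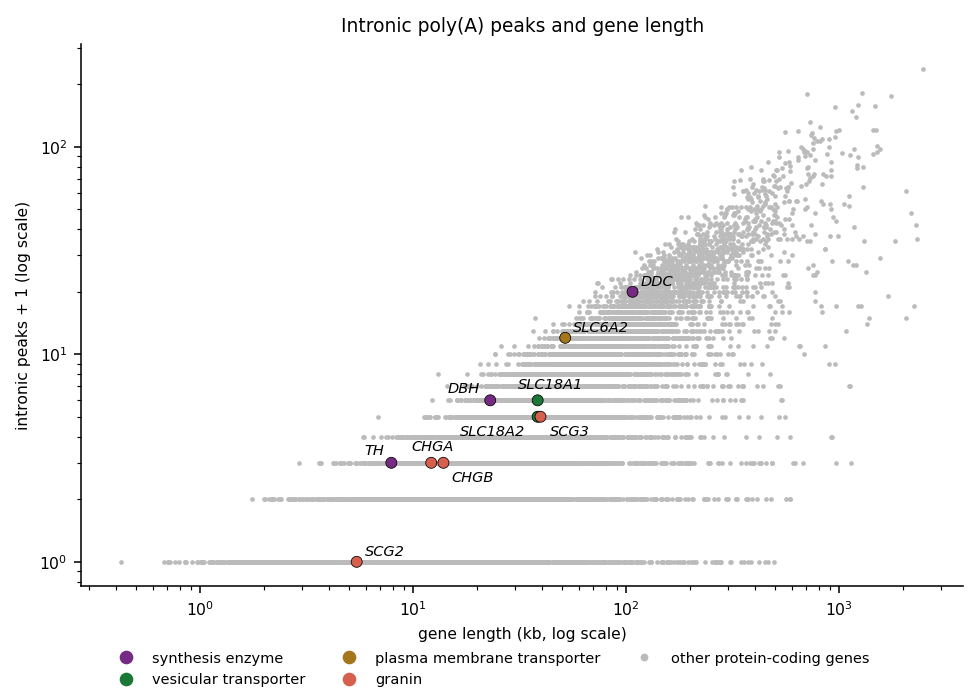
Intronic poly(A) peaks and gene length. Each grey point is a protein-coding gene with a transcript end peak and at least 1 intron, with the gene length in kb (log scale) on the x axis and the number of intronic peaks plus 1 (log scale) on the y axis; the 10 genes are labelled and coloured by role. DDC, with 19 intronic peaks, SLC6A2, with 11, DBH, with 5, and TH, with 2, lie above the upper quartile of genes of their length, and SCG2 has 0.

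CHGA, chromogranin A, the major soluble granule protein of neuroendocrine cells (chromosome 14, plus strand, 12.1 kb), had the highest end peak of the set. At chr14:92935039-92935453 the pileup was 78, at the 99.7th percentile of protein-coding genes with a transcript end peak, and the −log10 q was 53.4. The local background was high as well, at 5.92 reads per 100 bp (99.9th percentile), so the fold of 11.4 was close to the median of 10.9. That background corresponds to 592 reads in 10 kb, and reads of the gene's own peaks may be among them. As in DBH, the peak was wide and ended 168 bp past the annotated end, with no motif in the 100 bp before its edge, and its summit lay 42 bp before the gene end. A further peak ended 844 bp past the gene, with a pileup of 39 and no motif. Both peaks also fell within the 4 kb after ITPK1, the convergent gene on the opposite strand. In intron 4, chr14:92928516-92928779 had a pileup of 56, equal to that of the stronger DBH intronic peak, and a −log10 q of 38.9. Its local background was 4.11 reads per 100 bp and its fold 11.2. It had AATATA and was not followed by A-rich sequence.

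CHGB, SCG2 and SCG3, the other granins, had end peaks with lower pileups than CHGA. The end peak of CHGB (secretogranin I, chromosome 20) had a pileup of 29 and a fold of 11.3, and that of SCG3, a granin that binds the granule membrane (chromosome 15), a pileup of 29 and a fold of 11.5. SCG2 (secretogranin II, the precursor of secretoneurin, on chromosome 2), with a pileup of 41 over a background of 1.27, had a fold of 18.5, the highest after TH. Its peak ended 3 bp before the annotated end. In SCG3 only the 3′ edge of the stronger end peak, at chr15:51719491-51719998, lay near the shorter of the gene's annotated ends. The summit of that peak lay 1473 bp before the gene's 3′ end, more than 200 bp before the shorter annotated end. The peak that ended at the last base of the gene had a pileup of 14.

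Exonic peaks made up 10 of the 25 retained peaks of the granins, against 4 of 34 for the enzymes 0 of 15 for SLC6A2 and 5 of 18 for the vesicular transporters, whose 5 were all in genes opposite SLC18A2. Over all protein-coding genes 14.9% of retained peaks were exonic, and 2 of the 10 granin peaks, both of SCG3, also lay in a gene on the opposite strand. They were found in 7 of the 10 genes of the whole set, where 58.1% of protein-coding genes with a transcript end peak had any. CHGB had 4, all within exon 4, with pileups of 12 to 18. The exonic peak of SCG2 had a pileup of 27 and a −log10 q of 23.1, and that of SCG3 in exon 3 a pileup of 19 and a fold of 12.3, above the fold of its own end peak. Of the 10 granin exonic peaks, 6 were followed by A-rich sequence and 8 had some motif, 3 of them without A-rich sequence. The shares over all exonic peaks were 52.1%, 67.4% and 35.8%. These 8 peaks had neither AATAAA nor ATTAAA. The sequence after 2 of them, with its A run in capitals, is shown because these lie within the coding exons of acidic proteins; priming on these runs was not tested. It was read from GRCh38 on the strand of the gene.
CHGB exon 4, chr20:5922762-5922791, plus strand: agctatAAAAAAAgaggagttagtggccag
SCG2 exon 2, chr2:223598439-223598468, minus strand: tagAAAAAAAtgaacaaatcaacgatgaga

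SCG2, with a single intron, had no intronic peak, CHGB had 2 (median of genes of like length 1, upper quartile 2) and SCG3 had 4 (median 4, quartiles 2 and 5), while the strongest of CHGB and SCG3 had pileups of 12 and 11 and −log10 q of 5.67 and 7.40. The downstream peak of SCG3, 2158 bp past the gene, had a pileup of 20 and lay at the annotated end of LYSMD2, on the opposite strand, so it cannot be given to SCG3. In all, 14 of the 92 retained peaks lay in a gene on the opposite strand: 7 of SLC18A2, 4 of SCG3 and 3 of DDC, which is overlapped by DDC-AS1.

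**Figure D3:**
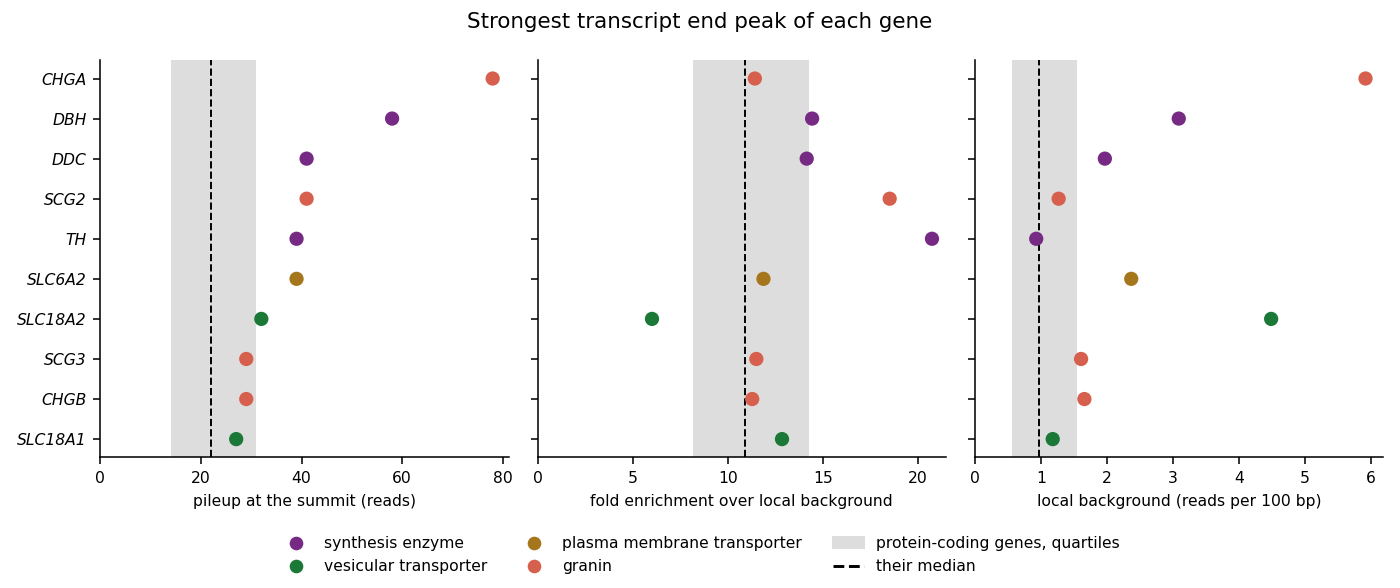
Strongest transcript end peak of each gene. The x axes give the pileup in reads, the fold enrichment and the local background in reads per 100 bp, for 1 peak per gene (rows, coloured by role); the grey band spans the quartiles of 12507 protein-coding genes and the dashed line is their median. CHGA and DBH have the highest pileups (78 and 58), TH and SCG2 the highest folds (20.7 and 18.5), and SLC18A2 combines a high background (4.49) with the lowest fold (6.01).

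Intronic peaks were found in 9 of the 10 genes, against 76.2% of protein-coding genes with a transcript end peak. The height of these peaks relative to the end peak varied widely among the members: the pileup of the strongest intronic peak was 0.966 of that of the end peak in DBH and 0.718 in CHGA, but 0.282 in TH, 0.379 in SCG3 and 0.414 in CHGB. The median of this ratio over all genes with both peaks was 0.64 (quartiles 0.429 and 0.957).

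**Figure D4:**
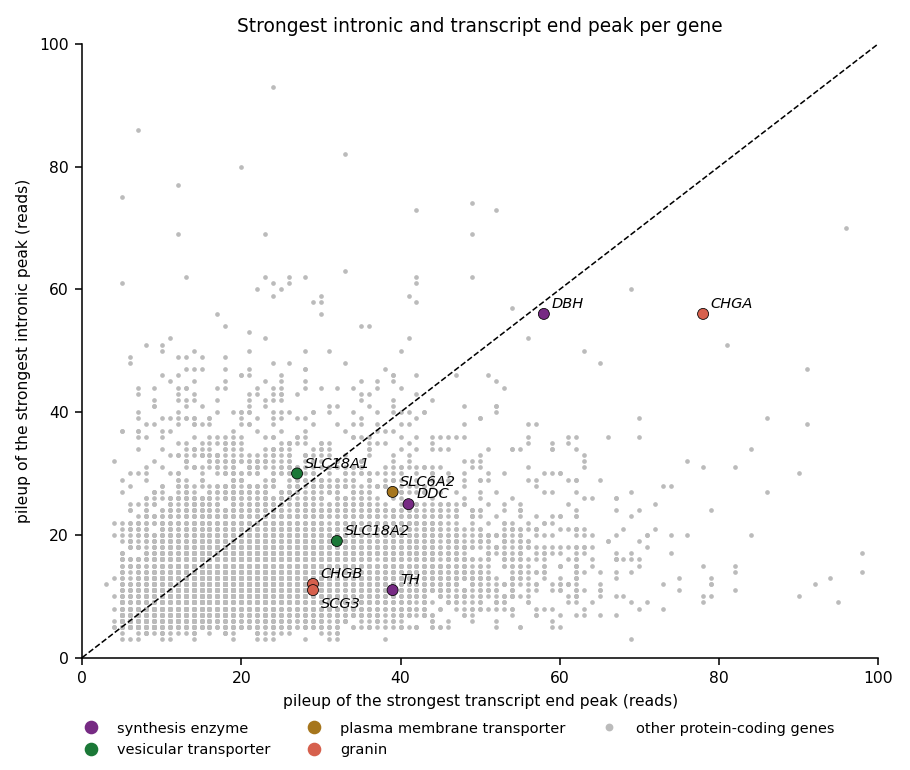
Strongest intronic and transcript end peak per gene. The x axis gives the pileup in reads of the strongest transcript end peak and the y axis that of the strongest intronic peak, for protein-coding genes with both (grey; 3 genes lie outside the axes) and the 9 of the 10 genes with both (labelled, coloured by role); the dashed line marks equal pileups. SLC18A1 lies above the line (30 against 27), DBH just under it (56 against 58), and CHGA far to the right (56 against 78).

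A PAS motif on the gene's strand in the 100 bp before the 3′ edge was present at 57 of 92 peaks, or 62.0% (95% Wilson interval 51.7% to 71.2%), and at 45.7% in the mirrored window on the opposite strand. Of 12 motifs sought in a set order of preference, AATAAA was taken at 26 peaks, ATTAAA at 6, AGTAAA at 5, TATAAA at 3, AATATA at 4, AATACA at 1, CATAAA at 1, GATAAA at 1, AATGAA at 2, ACTAAA at 3, AAGAAA at 3 and AATAGA at 2. Over all peaks of protein-coding genes the share was 60.9%. A-rich sequence followed 52.2% of the peaks (42.1% to 62.1%) and 15.2% on the opposite strand; over all protein-coding genes the share was 61.7%. The intervals cover counting error only, and peaks of a gene are not independent.

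At transcript end peaks the motif share was 68.8% (11 of 16, 44.4% to 85.8%), where all protein-coding genes had 85.6%, a value just within that interval. The 5 end peaks without a motif were those of DBH and CHGA described above, including both of CHGA, and 2 of SLC6A2. Where AATAAA was present it began 19 to 32 bases before the edge, with a median of 26.5 and 26 over all genes. Exonic peaks had a motif in 73.7% of cases (14 of 19, with 67.4% over all genes). AATAAA was taken at 1 of these 19 exonic peaks (5.26%), against 23.7% over all genes. Intronic peaks had a motif in 53.7% of cases, near the 54.4% of all genes, and A-rich sequence in 61.1% (47.8% to 73.0%), with 75.0% over all genes; 19 of these 54 peaks were from DDC, and the difference was not tested. A motif without A-rich sequence was found at 25.9% of the intronic peaks (16.1% to 38.9%), and at 17.4% over all genes, a value within that interval. The median pileup of the intronic peaks was 12.5 against 8 over all genes, but the local background was higher as well, at 1.02 against 0.44 reads per 100 bp, and the median folds were 6.54 and 6.02.

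**Figure D5:**
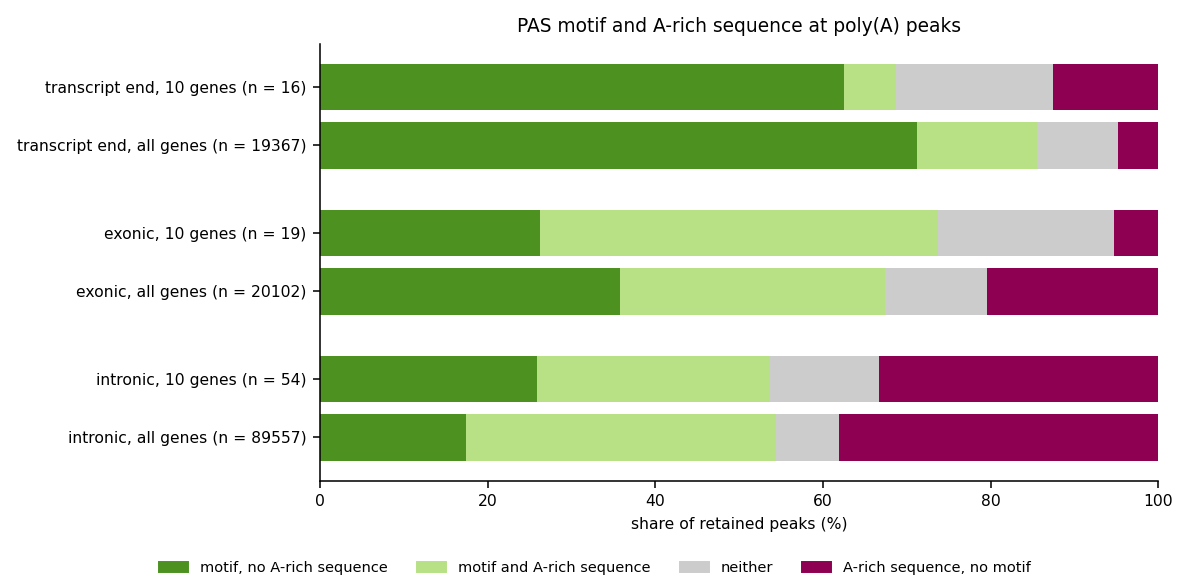
PAS motif and A-rich sequence at poly(A) peaks. Bars give the share of retained peaks in percent, by class, for the 10 genes and for all protein-coding genes, split by motif and A-rich sequence. Transcript end peaks mostly have a motif without A-rich sequence, and A-rich sequence follows 61.1% of the intronic peaks of the 10 genes and 75.0% of those of all genes.

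Of 49 further genes of the pathway, 46 had a retained peak and 43 a transcript end peak, with a median pileup of 24. Over all protein-coding genes 76.3% had a retained peak and 64.4% a transcript end peak, with a median pileup of 22. All 10 genes of cofactor supply and catabolism had an end peak, as did all 10 of the other granins and granule cargo, 17 of 18 genes of granule membrane and exocytosis, 3 of 5 other monoamine transporters and 3 of 6 genes of prohormone processing. The strongest by −log10 q were those of GNAS (89.0), whose locus also encodes a granin, and CYB561 (79.5), the granule cytochrome that carries electrons into the granule for DBH. SLC22A3, an extraneuronal monoamine transporter, and PCSK1 and PCSK2, the convertases that cut granins into peptides, had 0 retained peaks.

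Markers of the labelled cell type were looked up in the same pool, which holds both lines. All 12 markers of adrenergic neuroblastoma had a transcript end peak, where 64.4% of all protein-coding genes had one. An end peak was found for 7 of 9 mesenchymal neuroblastoma markers, 3 of 6 fibroblast markers, 2 of 4 endothelial markers and 1 of 5 leukocyte markers. The markers with 0 retained peaks were NOTCH2 and YAP1 (mesenchymal), COL1A2, DCN and LUM (fibroblast), PECAM1 and CDH5 (endothelial), and PTPRC, CD3E, CD14 and LYZ (leukocyte). How the peaks of the 10 genes divide between the lines and treatments was not measured here.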

How the data were processed

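The labels and the study's methods describe QuantSeq 3′ REV libraries of DNase-treated RNA, trimmed with BBDuk, mapped with STAR 2.5.1b to GRCh38 with ERCC sequences (submitters' processing notes: MACS2 2.1.1, deepTools 2.5.4), and merged before MACS2 called 1 list of peaks with 100 bp extension. The authors deposited a fold enrichment ratio, a −log10 p, a −log10 q and a score per peak, with 0 columns of values per sample; depth per library is unknown.

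Pileup and local background were solved from the deposited fold and −log10 p (pileup whole at 100% of peaks, tolerance 0.005; background times 100 whole at 90.5%, tolerance 0.02). Peaks were assigned with GENCODE 44 basic transcripts, by an overlap of at least 1 bp, as transcript end (200 bp before to 600 bp after an end), else exonic, intronic or downstream (4 kb). Peaks before 25 A (at most 3 mismatches, within 50 bp) with no motif in 100 bp were removed. Length classes are 20 bins of protein-coding genes with a transcript end peak and at least 1 intron. Shares have Wilson 95% intervals. No test was run. Python 3.11.15, pandas 2.3.3 and pysam 0.24.0 were used. Assignment and pileup recovery were tested on simulated data. The genes and lists were chosen with earlier results of these data known. For each gene the strongest end and intronic peak and each downstream peak were described; of the pathway lists, the 3 genes with the strongest end peak, of which 1 is not reported here, and those without a peak were named. Other peaks were named after their values were seen.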

Additional observations from a re-analysis of the deposited data

How the results depend on the processing

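Of 56 values for the whole set under 13 alternatives, 44 stayed within 1.5 times the count or within the interval of the share, as did 59 of 70 counts per gene. At a −log10 q of at least 10, 43 peaks remained, of which 18 were intronic and 9 exonic, and all 10 genes still had an end peak. With 1 kb in place of 4 kb after the gene, 0 downstream peaks were counted. Without peaks in a gene on the opposite strand there were 11 exonic peaks and 1 downstream peak, and SLC18A2 had no end peak. With AATAAA and ATTAAA only, 34.8% of peaks had a motif and 21.7% a motif without A-rich sequence. With A-rich sequence sought in 20 bp, these shares were 38.0% A-rich and 44.6% motif without A-rich sequence. With 25 A as the criterion, 0% were A-rich, by construction, since such peaks without a motif had been removed and none with a motif was present, and 62.0% had a motif without A-rich sequence. No paired analysis was possible because the list holds no value per library. For the same reason no replicate could be left out, and neither the spread between replicates nor the depth behind a peak in any condition is known.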
